A study of Homo sapiens with 4 samples.

Results

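The genes described here are HMOX1, which encodes heme oxygenase 1, and 9 further genes of glutathione, thioredoxin, NADPH and iron metabolism that are known targets of the transcription factor NRF2. They were GCLC, GCLM, SRXN1, TXNRD1, NQO1, UGDH, ME1, FTL and FTH1. Every probe set annotated to 1 of the 10 genes was taken, which gave 19 of 54613 probe sets and 9 of 19775 genes, and FTH1 is not analysed here. The members were chosen by a list drawn up with the rhSTIP1 and control signals of these arrays known, HMOX1 having been seen among the genes that were higher with rhSTIP1. The differences between rhSTIP1 and control arrays are therefore given as a description of these 9 genes, with no test.

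Total RNA came from SKOV3, an established human ovarian carcinoma line, and was measured on 4 Affymetrix arrays. The 2 control arrays were from cells without rhSTIP1, and the 2 rhSTIP1 arrays from cells that received it. The agent, rhSTIP1, was taken to be the recombinant human form of STIP1, a cochaperone of HSP70 and HSP90 that cells also secrete. Its dose and the length of treatment were not known here. All arrays are of 1 cell line, and nothing in the labels ties the arrays of a group to separate cultures, so the spread between them may be technical. Values are MAS5 signals on a linear scale, from bulk RNA, in which fewer cells of a kind and less RNA per cell cannot be told apart.

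NRF2, encoded by NFE2L2, is held in the cytoplasm by KEAP1 and degraded through a CUL3 ubiquitin ligase until oxidants or electrophiles modify KEAP1. It then pairs with a small MAF protein at antioxidant response elements and raises genes that make glutathione, reduce thioredoxin and quinones, supply NADPH, break down heme and store iron. BACH1, a heme-binding repressor, occupies the same elements and keeps HMOX1 low in many cells. In ovarian carcinoma cells this programme is best known for its link to tolerance of oxidants and platinum drugs.

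The mean of the rhSTIP1 arrays lay above the mean of the controls for each of the 9 measured genes (53.2% of all genes tested), and HMOX1 stood out in size. HMOX1 was 4.54-fold higher, SRXN1 1.90-fold, GCLC 1.65-fold, UGDH 1.46-fold, GCLM 1.43-fold, TXNRD1 1.36-fold, FTL 1.22-fold, NQO1 1.16-fold and ME1 1.05-fold. Both rhSTIP1 arrays lay above both controls for 6 of the 9 (HMOX1, GCLC, GCLM, NQO1, UGDH and FTL), and SRXN1, TXNRD1 and ME1 overlapped between the groups. Among all 12296 genes tested, 14% were higher without overlap. A difference of at least 1.5-fold without overlap, called separated below, was seen for HMOX1 and GCLC, against 1.9% of all genes in the same direction. The median log2 fold change was 0.51 over the 9 genes and 0.02 over all genes tested. All 9 were above 0 with median centring and with quantile normalization too, and 8 when a gene's probe sets were averaged, ME1 being below. That average also counted dim sets, among them one of ME1, whose other sets were each above 0. Since the list was made with this contrast known, nothing is read from these shares. Each of the 9 genes had signals above the test's minimum of 69.4 on all 4 arrays, so none entered through its rhSTIP1 arrays alone.

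**Figure D1:**
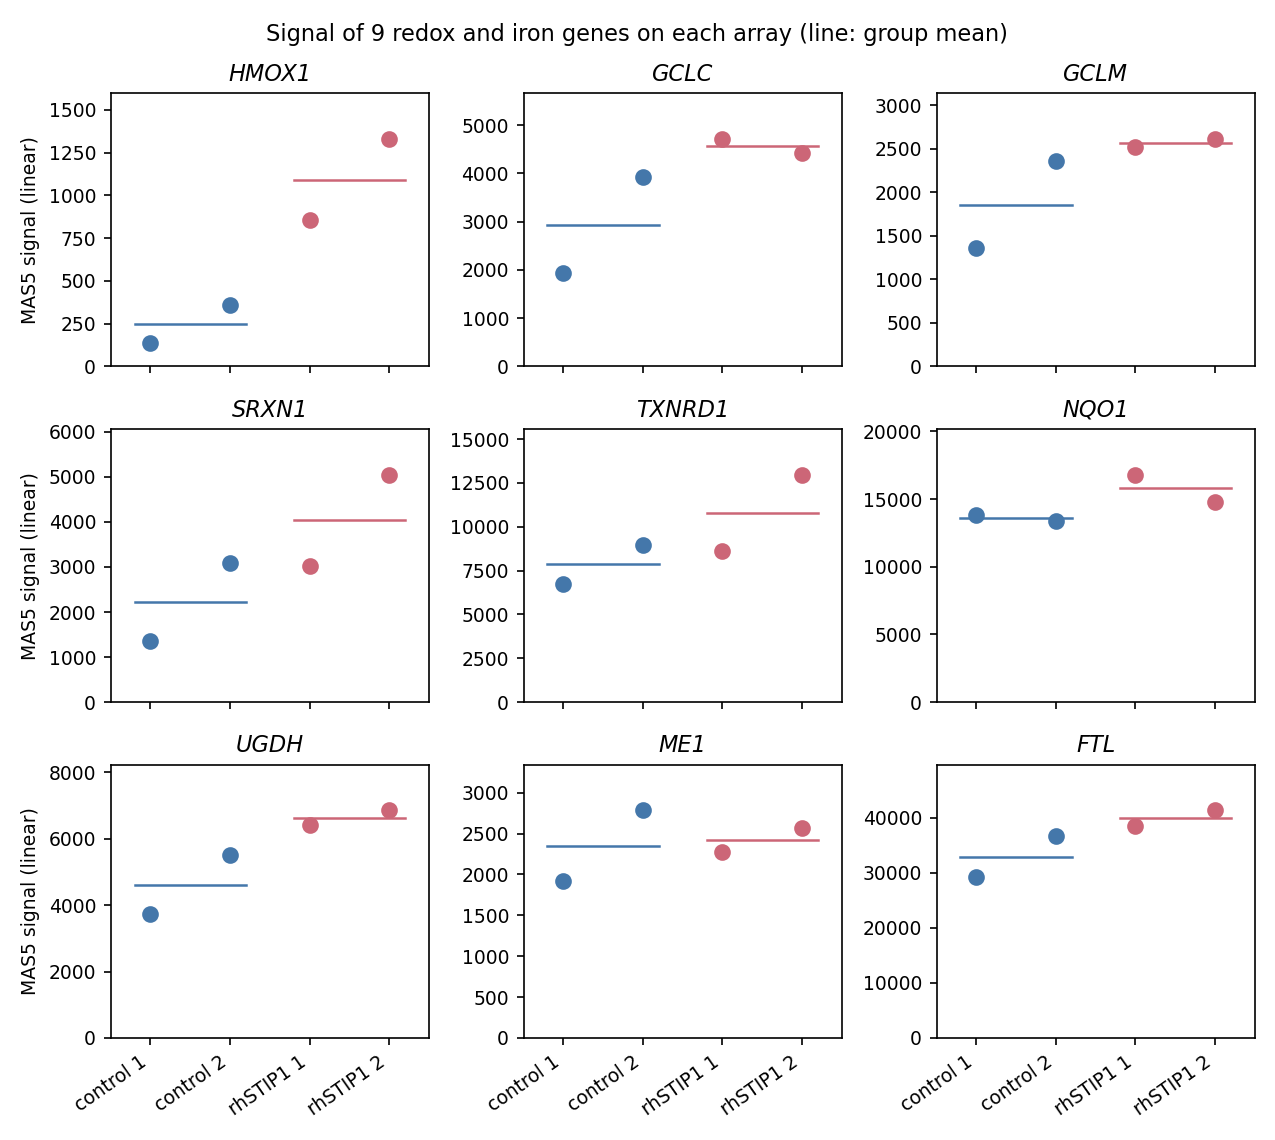
MAS5 signal (linear axis from 0) of the probe set representing each of 9 genes on control arrays 1 and 2 (blue) and rhSTIP1 arrays 1 and 2 (red), with a line at each group mean of 2 arrays. HMOX1 reads 135 and 361 on the controls and 855 and 1329 on the rhSTIP1 arrays, while control 1 is the lowest of the 4 points for 8 of the 9 genes (30.2% of all genes tested).

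The promoter windows of the members are shown next because NRF2 acts through a short element, whose core is TGACNNNGC. RefSeq windows on GRCh38.p14, each 250 bases before to 50 bases after an annotated start, were found for 8 of the 10 genes in 9 windows (TXNRD1 has 2 starts). HMOX1 and FTH1 were not matched. Searched on both strands, the core was found in 4 of the 9 windows, 2 of them of TXNRD1, against 13.3% of all 35116 windows. By gene it was found in 3 of the 8, GCLM, ME1 and TXNRD1, against 16.1% of all 27305 genes. The 150 bases before the start are printed for those 4 windows, 5′ to 3′ on the gene's strand, with the matches that end before the start in capitals. In GCLM and at the second TXNRD1 start the core lies on the opposite strand, so the capitals show its reverse complement.
GCLM, chr1:93909431-93909580, minus strand: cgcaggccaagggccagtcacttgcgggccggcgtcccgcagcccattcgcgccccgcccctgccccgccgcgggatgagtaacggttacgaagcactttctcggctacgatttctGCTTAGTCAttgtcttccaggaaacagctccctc
ME1, chr6:83431052-83431201, minus strand: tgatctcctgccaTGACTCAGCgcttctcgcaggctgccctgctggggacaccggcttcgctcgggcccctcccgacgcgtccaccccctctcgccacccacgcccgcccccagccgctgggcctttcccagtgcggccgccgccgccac
TXNRD1 first start, chr12:104215629-104215778, plus strand: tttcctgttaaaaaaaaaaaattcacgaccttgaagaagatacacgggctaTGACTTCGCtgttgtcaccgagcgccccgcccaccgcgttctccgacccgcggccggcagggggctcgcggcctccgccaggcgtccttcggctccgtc
TXNRD1 second start, chr12:104286882-104287031, plus strand: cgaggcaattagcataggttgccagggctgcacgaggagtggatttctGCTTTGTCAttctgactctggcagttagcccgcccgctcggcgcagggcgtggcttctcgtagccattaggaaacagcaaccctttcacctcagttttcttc
Counted from the first transcribed base, the match of GCLM begins at −34, as TGACTAAGC on the opposite strand. That of ME1 begins at −137, as TGACTCAGC, and overlaps TGACTCA, the element of AP-1 factors, which 4.95% of all windows hold. The TXNRD1 matches begin at −99 from the first start (TGACTTCGC) and at −102 from the second (TGACAAAGC, opposite strand). A further match in TXNRD1 begins at −8 from the first start and runs into the transcript, and one in ME1 begins at base 12 of the transcript. HMOX1 aside, the genes with the greatest differences, SRXN1 and GCLC, had no match in this window. A match is a run of letters and not a measured binding site, and NRF2 elements known to lie farther upstream fall outside these windows.

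**Figure D2:**
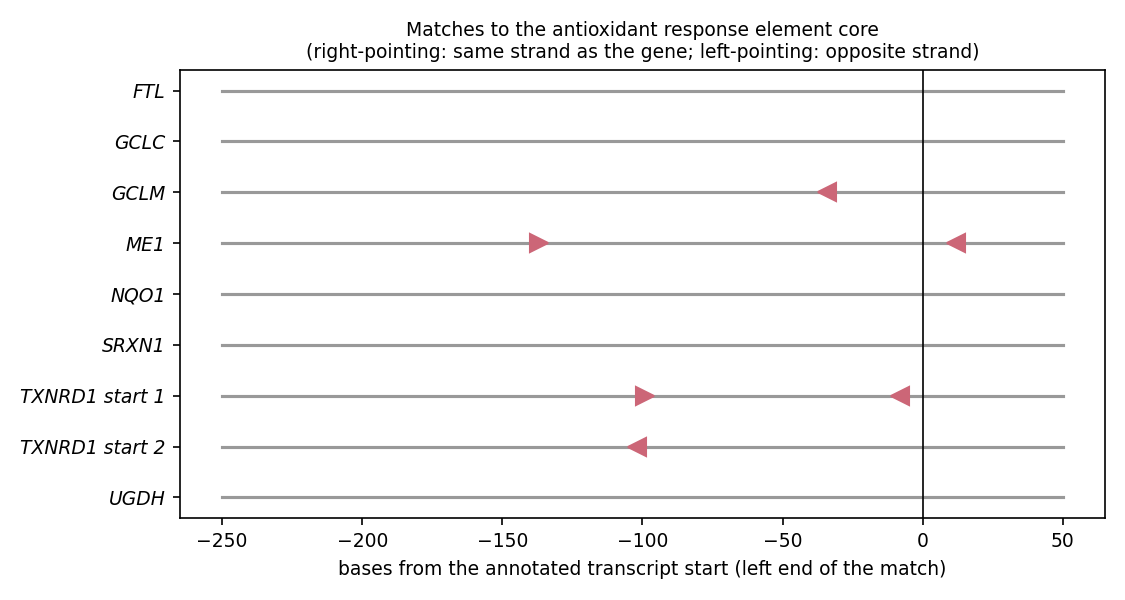
Matches to the antioxidant response element core in the 9 promoter windows of 8 genes, by distance in bases from the annotated start, right-pointing on the gene's strand and left-pointing on the opposite strand. GCLM, ME1 and both TXNRD1 starts hold matches, and the other 5 windows hold none.

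Heme breakdown was represented by HMOX1, the inducible oxygenase that opens the heme ring and releases iron, carbon monoxide and biliverdin. Its single probe set had signals of 135 on control array 1, 361 on control array 2, 855 on rhSTIP1 array 1 and 1329 on rhSTIP1 array 2, and values below keep that order. Both rhSTIP1 arrays were thus above both controls, and the lower rhSTIP1 array was above the higher control by 1.21 on the log2(signal + 16) scale used for all differences below. The log2 fold change was 2.18 ± 0.44 (SE from limma, n = 2 arrays a group), the fifth highest of the 12296 genes. The controls themselves differed, control 2 lying above control 1 by 1.32, and rhSTIP1 array 2 lay above array 1 by 0.63. HMOX1 had a log2 fold change of 1.52 without control array 1 and of 2.84 without control array 2. It stayed separated with any 1 array left out, but the gap of 1.21, being more than 1.5-fold, fixes that in advance. HMOX2, the constitutive oxygenase, had signals of 1497 and 1603 on the control arrays, against 1647 and 1636 on the rhSTIP1 arrays, a log2 fold change of 0.08 ± 0.23.

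Glutathione synthesis starts with glutamate-cysteine ligase, whose catalytic subunit is GCLC and whose modifier subunit is GCLM. GCLC had signals of 1939 and 3928 on the control arrays, against 4711 and 4423 on the rhSTIP1 arrays. Control 1 stood far below the other 3 arrays, and both rhSTIP1 arrays were above control 2 by 0.26 and 0.17. The log2 fold change of GCLC was 0.72 ± 0.33. It was 0.22 without control array 1, where GCLC no longer reached 1.5-fold, and 1.23 without control array 2. A further probe set of GCLC gave 1439 and 2832 against 3252 and 3406, or 0.72 ± 0.33, and a dim one gave 26.3 and 80.9 against 68.7 and 144, with overlap. The dim set had a control mean below the minimum of 69.4 and passed it only with its rhSTIP1 arrays counted.

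GCLM, the subunit that lowers the enzyme's feedback inhibition by glutathione, also had control 1 well below the other 3 arrays. Its signals were 1359 and 2357 on the control arrays, against 2516 and 2612 on the rhSTIP1 arrays, a log2 fold change of 0.51 ± 0.30. It was 0.12 without control array 1 and 0.91 without control array 2. The groups did not overlap, but rhSTIP1 arrays 1 and 2 were above control 2 by only 0.09 and 0.15. Its other probe sets overlapped between the groups. They had 844 and 1275 against 1255 and 1580, and 312 and 1209 against 658 and 1440, so in the last set array 2 of each group was above array 1 of both.

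**Figure D3:**
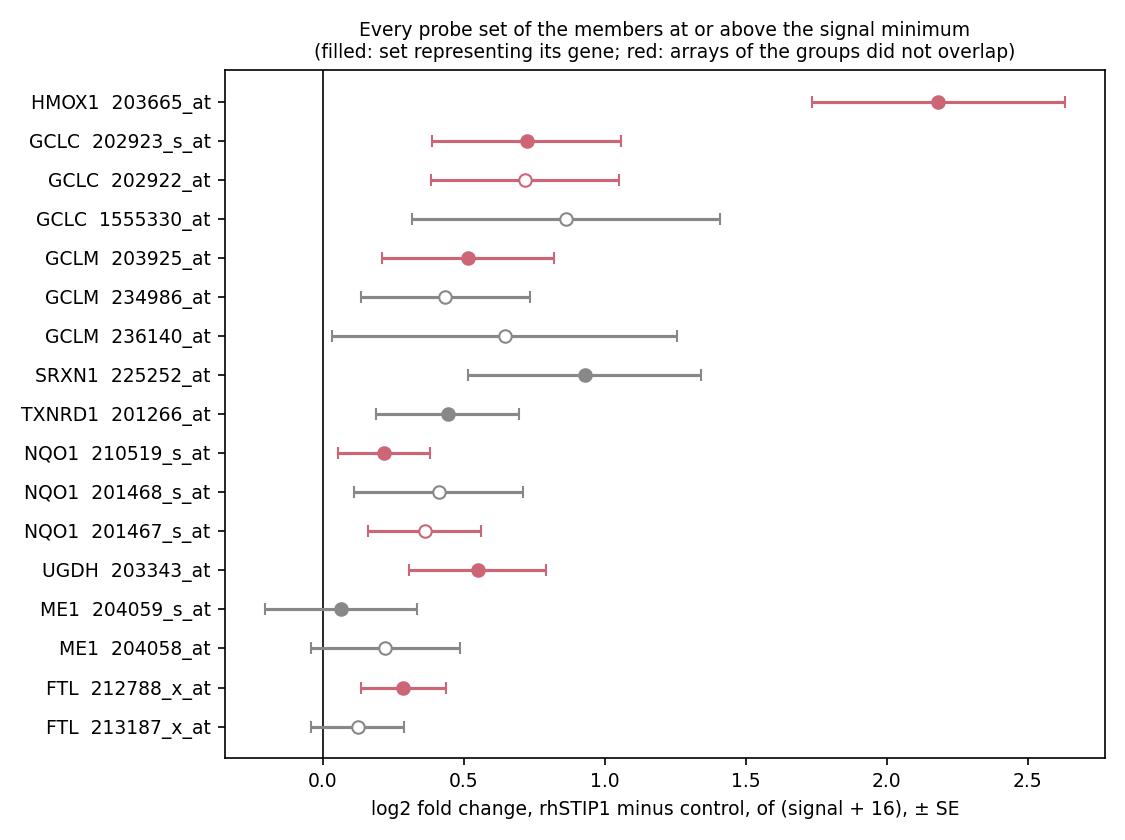
Log2 fold change of signal + 16, rhSTIP1 minus control, for the 17 probe sets at or above the signal minimum, with SE bars from limma fitted over all probe sets (n = 2 arrays a group). All 17 points lie above 0 (53.2% of all genes tested, by 1 set each). The 8 red points mark sets whose arrays did not overlap between groups (12.8% of all probe sets tested). The dimmest GCLC set passed the minimum only with its rhSTIP1 arrays counted, so nothing is read from its place above 0.

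Thioredoxin metabolism was represented by SRXN1 and TXNRD1. SRXN1, sulfiredoxin, repairs peroxiredoxins that peroxide has overoxidized. Its single probe set had signals of 1360 and 3080.05 on the control arrays, against 3028 and 5048 on the rhSTIP1 arrays. Control 2 and rhSTIP1 array 1 were nearly level, control 1 was low and rhSTIP1 array 2 high, so the groups overlapped although the log2 fold change was 0.93 ± 0.41. It was 0.34 without control array 1 and 1.51 without control array 2. Leaving out rhSTIP1 array 2 gave 0.56. The difference was 1.146 between array 1 of each group and 0.71 between array 2 of each. TXNRD1, the cytosolic reductase that keeps thioredoxin reduced with NADPH, had signals of 6747 and 8978 on the control arrays, against 8635 and 12966.5 on the rhSTIP1 arrays. Only rhSTIP1 array 2 was above both controls, and the log2 fold change was 0.44 ± 0.25. It was 0.15 without rhSTIP1 array 2, 0.735 without rhSTIP1 array 1, and 0.24 both without control array 1 and with the mean of its probe sets. Its other probe set was dim, between 0.734 and 14.7 on the 4 arrays, and was not tested by itself. The average over probe sets counted this dim set equally, so it is no check on the brighter set.

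Quinone, glucuronate and NADPH enzymes were represented by NQO1, UGDH and ME1. NQO1, a quinone reductase, had signals of 13821 and 13347 on the control arrays, against 16802.5 and 14802 on the rhSTIP1 arrays, with a log2 fold change of 0.22 ± 0.17. It was the only member whose control 2 did not lie above control 1, and both rhSTIP1 arrays were higher by a small margin. The probe sets of NQO1 disagreed on the controls, one of them giving 4507 and 8393 against 7558 and 8859 and another 5130.4 and 5570.3 against 7335 and 6438. Their log2 fold changes were 0.41 ± 0.30 and 0.36 ± 0.20, and the mean of the probe sets gave 0.33, so the value depends on the probe set chosen. Without rhSTIP1 array 1 it was 0.12. UGDH, which makes the UDP-glucuronate that conjugating enzymes use, had signals of 3720.1 and 5507 on the control arrays, against 6408 and 6854 on the rhSTIP1 arrays. Both rhSTIP1 arrays were higher than either control, above control 2 by 0.22 and 0.31, and the log2 fold change between group means was 0.55 ± 0.24. It was 0.27 without control array 1 and 0.83 without control array 2.

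ME1, the cytosolic malic enzyme that yields NADPH, differed least. Its signals were 1919 and 2784 on the control arrays, against 2276 and 2567 on the rhSTIP1 arrays, so both rhSTIP1 arrays lay between the controls and the log2 fold change was 0.06 ± 0.26. It was −0.20 without control array 1, −0.02 without rhSTIP1 array 2 and −0.12 with the mean of its probe sets. A second probe set of ME1 had 1864 and 2519 against 2276 and 2812. The dim one, between 2.21 and 43.4 on the 4 arrays, was not tested by itself. It counted equally in the average of −0.12, so nothing is read from that value.

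Iron storage was represented by FTL, the light chain of ferritin, whose protein level is set mostly by translation under iron regulatory proteins. The better lit probe set had signals of 29177 and 36792 on the control arrays, against 38548 and 41367 on the rhSTIP1 arrays, a log2 fold change of 0.29 ± 0.16. It was 0.12 without control array 1 and 0.45 without control array 2. The groups did not overlap, with rhSTIP1 array 1 above control 2 by only 0.07. A second probe set overlapped, at 25466 and 33733 against 31366 and 32500.2. The names of both sets end in _x_at, by which the maker marks sets whose probes can match other sequences, and FTL has processed pseudogenes, so the gene is uncertain here.

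Control 1 and control 2 differed over these genes by about as much as the groups did. Control 2 lay above control 1 for 8 of the 9 (53.2% of all genes tested), NQO1 being the exception at −0.05, by a median of 0.56. It was at least 1.5-fold above for HMOX1, GCLC, GCLM and SRXN1, that is 4 of 9 against 10.3% of all genes tested. Over all genes the median of control 2 minus control 1 was 0.03 as deposited and −0.18 after median centring. With median centring the count was 3 of 9 against 5.11%, and with quantile normalization 5 of 9 against 8.48%. Between the rhSTIP1 arrays, array 2 lay above array 1 for 7 of the 9 (6586 of all 12296 genes tested). It was at least 1.5-fold above for 3 of the 9 (1436 of 12296). Each of these comparisons is 1 array against 1, so it has no replicate check. Between array 1 of each group the median difference of the members was 0.78 and all 9 were higher with rhSTIP1 (51.4% of all genes tested). Between array 2 of each group it was 0.17 and 8 of 9 were higher (52%), ME1 being the exception at −0.12. Both rhSTIP1 arrays were above control 1 for all 9 (35.8% of all genes tested) and above control 2 for 6 (29.1%). These comparisons share arrays and are given side by side only.

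**Figure D4:**
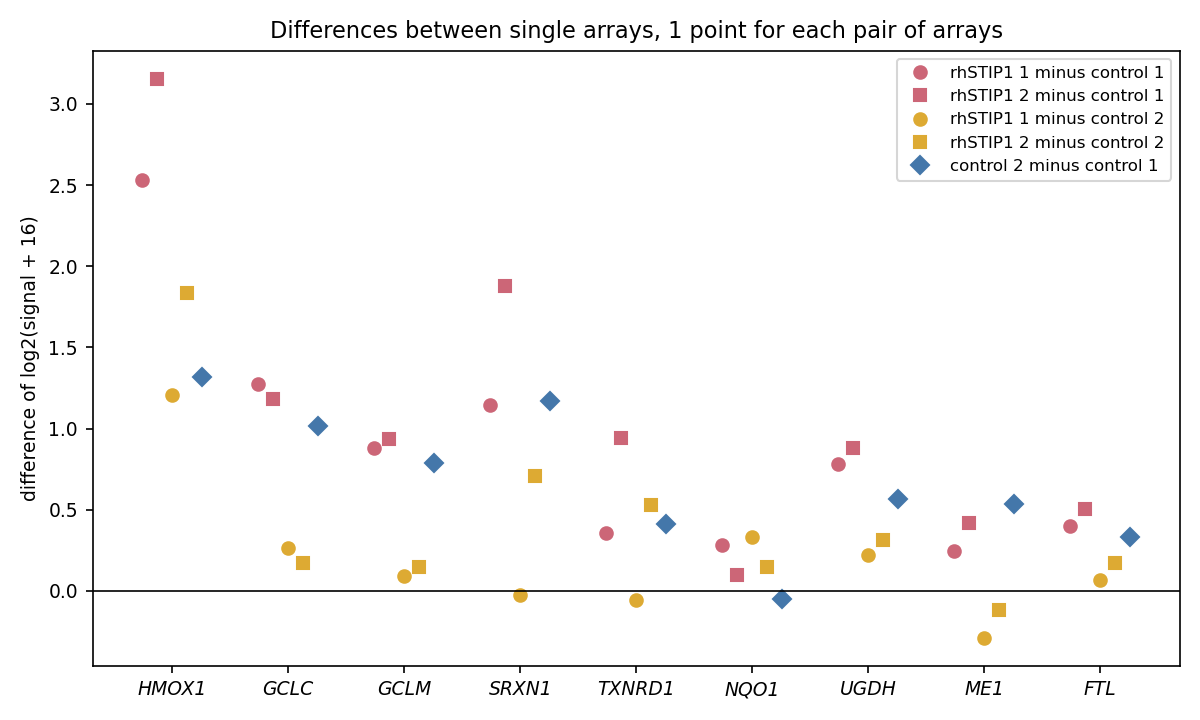
Differences of log2(signal + 16) between single arrays for each of 9 genes, rhSTIP1 arrays minus control 1 (red), rhSTIP1 arrays minus control 2 (yellow) and control 2 minus control 1 (blue). For HMOX1 all 4 rhSTIP1 differences are above 1, whereas for the other 8 genes the yellow points lie below 1. The blue point lies above both yellow points for GCLC, GCLM, SRXN1, UGDH, ME1 and FTL.

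The count of separated members followed the arrays used. Without control array 1 it was 1 (HMOX1), against 3.32% of all genes, and without control array 2 it was 6 (HMOX1, GCLC, GCLM, SRXN1, TXNRD1 and UGDH), against 7.69%. Without rhSTIP1 array 1 it was 5 (5.9% of all genes), and without rhSTIP1 array 2 it was 2 (3.87%). With median centring SRXN1 and UGDH joined HMOX1 and GCLC (2.65%).

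The median signal was 66.0 on control 1, 79.2 on control 2 and 69.0 on both rhSTIP1 arrays. Degraded RNA raises the signal of 3′ over 5′ control probe sets, and this ratio for ACTB was 8.79 on rhSTIP1 array 2 and between 2.45 and 2.74 on the others, and the same ratio of GAPDH ran from 0.987 to 1.32. rhSTIP1 array 2 was the highest of the 4 arrays for 6 of the 9 members, against 29.4% of all genes, and the part of RNA quality in this was not tested. All 10 markers of SKOV3 or carcinoma cells reached the signal minimum, and their summed signal lay between 84283 and 90403. Summed signals were 188 and 235 on the control arrays, against 156 and 317 on the rhSTIP1 arrays for leukocyte markers (6 measured of 7 listed, 1 at the minimum). For endothelial markers (5 of 5, 1 at the minimum) they were 232 and 234 against 361 and 227, and for fibroblast markers (6 of 6, 4 at the minimum) 621 and 433 against 664 and 516. For erythroid markers (3 of 6, 1 at the minimum) they were 214 and 273 against 197 and 158. Mean signals of single leukocyte markers ran from 18.6 (LYZ) to 71.6 (ITGAM), with PTPRC at 27.9. Those of endothelial markers ran from 3.05 (CDH5) to 141 (PECAM1).

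The regulators of NRF2 had transcript log2 fold changes on both sides of 0. With 2 arrays a group, a small difference cannot be told from none. Of 15 listed genes 14 were tested, 8 above 0 (53.2% of all genes tested) and 6 below, with a median log2 fold change of 0.09. Of these, 0 passed limma's test adjusted over all genes or had an unadjusted p under 0.05, which 3.68% of all genes had. NFE2L2, the gene of NRF2, had signals of 9031 and 12943 on the control arrays, against 7447 and 12952 on the rhSTIP1 arrays, or −0.14 ± 0.30, with overlap. Its array 2 was above array 1 in both groups. KEAP1, the inhibitor, had 0.23 ± 0.26 and BACH1, the repressor, −0.15 ± 0.29, both with overlap. MAFG and MAFF, small MAF partners, had 0.30 ± 0.29 and 0.23 ± 0.20. SQSTM1, an autophagy receptor that binds KEAP1 and is also an NRF2 target, had 7393 and 15098 against 12882 and 16441, or 0.46 ± 0.32. BACH2, a relative of BACH1, was the only separated regulator, at 66.2 and 80.6 against 144 and 98.3, and not without control array 1 (0.48) or rhSTIP1 array 1 (0.36). The arrays measure transcripts only, while NRF2 is controlled mainly as a protein.

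Other known NRF2 targets had a median log2 fold change of 0.18. Of 20 listed 18 were tested, 14 above 0 and 4 below, 5 without overlap and all higher, and 2 were separated. Over all genes tested 53.2% were above 0, 14% were higher without overlap and 1.9% were separated higher. None of the 18 passed limma's adjusted test (0), and 1 had an unadjusted p under 0.05 (3.68% of all genes). SLC6A6, the taurine transporter, had signals of 239 and 576 on the control arrays, against 724 and 921 on the rhSTIP1 arrays, or 1.099 ± 0.40. The order of its arrays, with control 1 lowest and control 2 next, was that of HMOX1. It was 0.49 without control array 1 and 0.20 with the mean of its probe sets, and not separated in either. TRIM16, a ubiquitin ligase, had 370 and 761 against 821 and 913, or 0.69 ± 0.35, and was not separated without control array 1 (0.18). TRIM16L is a near copy of TRIM16, so the probes may not tell them apart.

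Further genes of glutathione metabolism had values on both sides of 0. Of 26 listed 24 were tested, 12 above 0 (53.2% of all genes tested) and 12 below, with a median of 0.01. Of these, 0 were separated and 0 passed limma's test adjusted over all genes or at an unadjusted p under 0.05. GPX1, a selenium-dependent peroxidase, had signals of 6237 and 6796 on the control arrays, against 8602 and 8724 on the rhSTIP1 arrays, or 0.41 ± 0.19, without overlap. CHAC2, which degrades glutathione, had −0.47 ± 0.32, SLC3A2, the heavy chain of the cystine importer, −0.41 ± 0.30, and GSTM4, a glutathione transferase, −0.31 ± 0.35, all with overlap.

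Among thioredoxin and peroxiredoxin genes 16 of 19 listed were tested, 13 above 0 (53.2% of all genes tested) and 3 below, with a median of 0.08. TXNIP, which binds and inhibits thioredoxin, was the only one separated, as 3.79% of all genes were in that direction. Its signals were 19674 and 23156 on the control arrays, against 13253 and 13372 on the rhSTIP1 arrays, a log2 fold change of −0.68 ± 0.17. It was the only gene of the list with an unadjusted p under 0.05, which 3.68% of all genes had. Adjusted over all genes, 0 of the list passed (limma, adjusted p = 0.70 for TXNIP). Without control array 2 the log2 fold change of TXNIP was −0.56 and fell short of 1.5-fold, and with the mean of its probe sets it was −1.11. TXNRD2, the mitochondrial reductase, had 0.25 ± 0.26, the superoxide dismutase SOD2 0.24 ± 0.25 and catalase, CAT, 0.24 ± 0.29.

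Heme and iron genes had a median of 0.14, against 0.02 over all genes tested. Of 27 listed 25 were tested, 18 above 0 (53.2% of all genes tested) and 7 below. Arrays did not overlap for 11 of them, all higher, against 14% of all genes, and 1 was separated (1.9% of all genes). None passed (0 by limma's adjusted test, 0 at an unadjusted p under 0.05, which 3.68% of all genes had). SLC48A1, a heme transporter, had signals of 1484 and 1153 on the control arrays, against 1589 and 2702 on the rhSTIP1 arrays, or 0.66 ± 0.31. It was not separated without rhSTIP1 array 2 (0.28), without control array 2 (0.48) or with the mean of its probe sets (0.46). SLC40A1, the iron exporter ferroportin, had 0.54 ± 0.45, FECH, the last enzyme of heme synthesis, 0.37 ± 0.30, and ABCB6, a porphyrin transporter, 0.34 ± 0.31. Paralogs of the members that were tested (4 of 7 listed) had log2 fold changes of 0.25 for TXNRD2, 0.12 for NQO2, 0.08 for HMOX2 and 0.07 for ME2, with 0 separated and 0 passing either way.

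**Figure D5:**
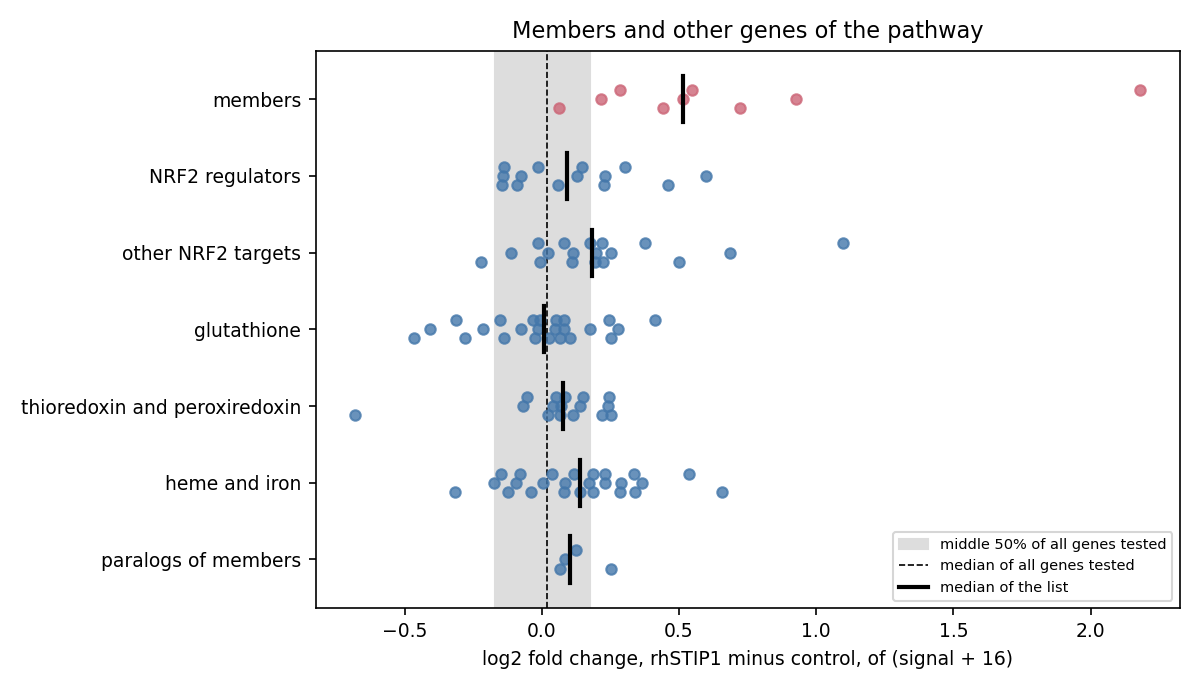
Log2 fold change of signal + 16, rhSTIP1 minus control, of each tested gene (points) in the member list (red) and in 6 lists of related genes (blue), with a bar at each list's median, and the median and middle 50% of all 12296 genes tested as dashed line and grey band. HMOX1 at 2.18 is the highest point and TXNIP at −0.68 the lowest.

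Over the 4 arrays, the genes outside the list closest to HMOX1 were FAM43A, ALDH1A2, THBD, ANHX and RNA45SN5. Likeness was the root mean square distance between log2(signal + 16) profiles centred on each gene's mean. The profiles were not scaled, so a group difference near that of HMOX1 by itself brings a gene close. Log2 fold changes of these genes ran from 1.715 (ALDH1A2) to 2.35 (ANHX). HMOX1 was known to be higher with rhSTIP1, so nothing is read from the order. FAM43A was closest, at a distance of 0.31, with signals of 119 and 186 on the control arrays, against 488 and 708 on the rhSTIP1 arrays. THBD, the thrombin receptor thrombomodulin, had 146 and 253 against 821 and 725, at 0.37. ALDH1A2, a retinaldehyde dehydrogenase, was at 4.34 and 69.1 against 105 and 138, and ANHX at 12.8 and 30.6 against 184 and 158. Both were below the minimum of 69.4 on each control, so they were tested only through their rhSTIP1 arrays, and nothing is read from their likeness. RNA45SN5, a ribosomal RNA precursor, had 171 and 287 against 580.1 and 1687. Of the members SRXN1 came nearest to HMOX1, at 0.63, with 28 other genes closer, and GCLC followed at 0.78.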

How the data were processed

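The authors deposited probe set intensities on a linear scale. Per the submitters' processing notes, the tools were MAS5 and Affymetrix Expression Console 1.1. Computed here from the deposited values, every array has a 2% trimmed mean of 500.1. The table holds no detection calls, and a genome build is not given in the sources used here. Probe sets were named from the platform annotation where it gave exactly 1 symbol (41091 of 54613, with 1801 holding several and 11721 none). The probe set of highest mean stood for its gene, and genes entered the test at a mean of 69.4 or more, the median over probe sets.

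Groups were compared with limma 3.58.1 in R 4.3.3 (lmFit, eBayes with intensity trend) on log2(signal + 16), two-sided, Benjamini-Hochberg adjusted over 12296 genes, with no further scaling. Fold changes on this scale understate those of dim genes. An exact permutation test of 2 arrays against 2 cannot go below 0.333. The limma fit, and no other step, was checked on simulated data.

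The members and the 6 related lists were chosen with earlier results of these data known. Named genes were all members, set NRF2 regulators, up to 4 genes a list (separated genes first, otherwise those with the largest absolute change) and the 5 profiles nearest to HMOX1. Alternatives covered pseudocount, filter, scaling, probe set choice, trend, replicate block and leaving out each array. Where a gene's probe sets were averaged, all of its sets counted equally, also dim ones.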

Additional observations from a re-analysis of the deposited data

How the results depend on the processing

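The number of arrays limits every value. No gene passed limma's adjusted test (0 of 12296, with 452 at an unadjusted p under 0.05), 1 did with a filter at the 70th percentile, and 0 to 6 with 1 array left out, where a group's single array borrows the spread of the other group's 2. With the replicate number as a block it was 247. The labels do not tie the numbers to a shared culture or day, and deviations of same-numbered arrays correlated at 0.362 over genes, which are not replicates. In this balanced design a block cannot change a log2 fold change, so those of the members and the list medians were the same by construction.

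Genes separated higher numbered 234, and 150 with a pseudocount of 64, 855 with no filter, 123 with a filter at the 70th percentile and 408 to 945 with 1 array left out. Genes separated lower numbered 466, and 1232 with no filter, 301 with a filter at the 70th percentile and 654 to 1034 with 1 array left out. Separated members numbered 2, and 4 with median centring and 1 to 6 with 1 array left out.

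With 1 array left out the list medians ran from −0.14 to 0.17 for glutathione, 0.081 to 0.18 for heme and iron, 0.084 to 0.19 for paralogs, −0.06 to 0.23 for NRF2 regulators, 0.15 to 0.27 for other NRF2 targets and 0.01 to 0.19 for thioredoxin and peroxiredoxin. The heme and iron median was 0.063 with the mean of probe sets. The filter changes which genes are tested, and the cause of the other changes was not tested.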
